A study of Rattus norvegicus with 8 samples.

Results

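Carbonic anhydrases are zinc enzymes that interconvert carbon dioxide and water with bicarbonate and a proton. In the intestinal epithelium they feed bicarbonate to the chloride-bicarbonate exchangers and to CFTR, and protons to the sodium-hydrogen exchangers. Some are free in the cytosol (Car1, Car2, Car13), Car4 is anchored to the outer face of the apical membrane by a lipid, and Car9 and Car12 are transmembrane proteins with their active site outside the cell. Loss of CA12 in humans causes a salt-wasting syndrome with raised sweat chloride.

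The 6 genes Car1, Car2, Car4, Car9, Car12 and Car13 were taken by exact symbol from the 52753 loci of the gene table, and each symbol was carried by a single locus. The series compares small intestine of Sprague Dawley rats with cystic fibrosis (CF, 4 libraries) with that of wild-type rats (WT, 4 libraries), all at postnatal day 21. RNA came from the whole length of the intestine, trimmed of fat and flushed, and was sequenced as stranded mRNA. The labels do not state the CF allele, the sex or the litter, nor that the libraries are from separate animals, so the spread behind every p-value may be technical. The numbers 0 to 3 name libraries within a group and pair nothing.

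Assigned fragments numbered 18621671 to 20890031 per CF library and 15255364 to 20812425 per WT library. Fragments are given as CPM, counts scaled to a common library size. An adjusted p under 0.05 was reached by 28 of 16941 loci (0.165%). Several libraries stood apart. CF library 0 had the lowest mean of 12 villus enterocyte genes, 1.07 log2 units below the mean of all libraries, and WT library 0 the lowest mean of 7 goblet cell genes, 1.04 log2 units below it. Pancreatic transcripts were present in CF library 2 and WT library 1, where the 6 pancreas markers summed to 91.4 and 45.6 CPM, against 16.6 to 18.1 CPM in the other CF and 14.97 to 18.6 CPM in the other WT libraries. Most of the sum in those other libraries came from Cela1, which was at 14.4 to 18.4 CPM in all 8 libraries. The enterocyte gene Apoa1 was at 1925 CPM or more in all 8 libraries, and the colon gene Hoxb13 had no fragment in any of them.

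The membrane-anchored Car4 was the most variable of the 6 genes and had the largest mean difference, while Car9 and the cytosolic Car13 were also higher on average in CF. Car2 and Car12 had similar means in both groups, and Car1 was barely counted. Of the 6 genes 5 had enough fragments for the test, and 0 of these 5 passed the adjusted p of 0.05 by edgeR's quasi-likelihood test. At an unadjusted p of 0.05 3 of the 5 passed (Car4, Car9 and Car13, all with higher means in CF), where 15.1% of all tested loci did. Their median log2 fold change, CF over WT, was 0.72, against −0.0049 for all tested loci. The count of called members depended on the test and on CF library 0, as given gene by gene below.

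**Figure D1:**
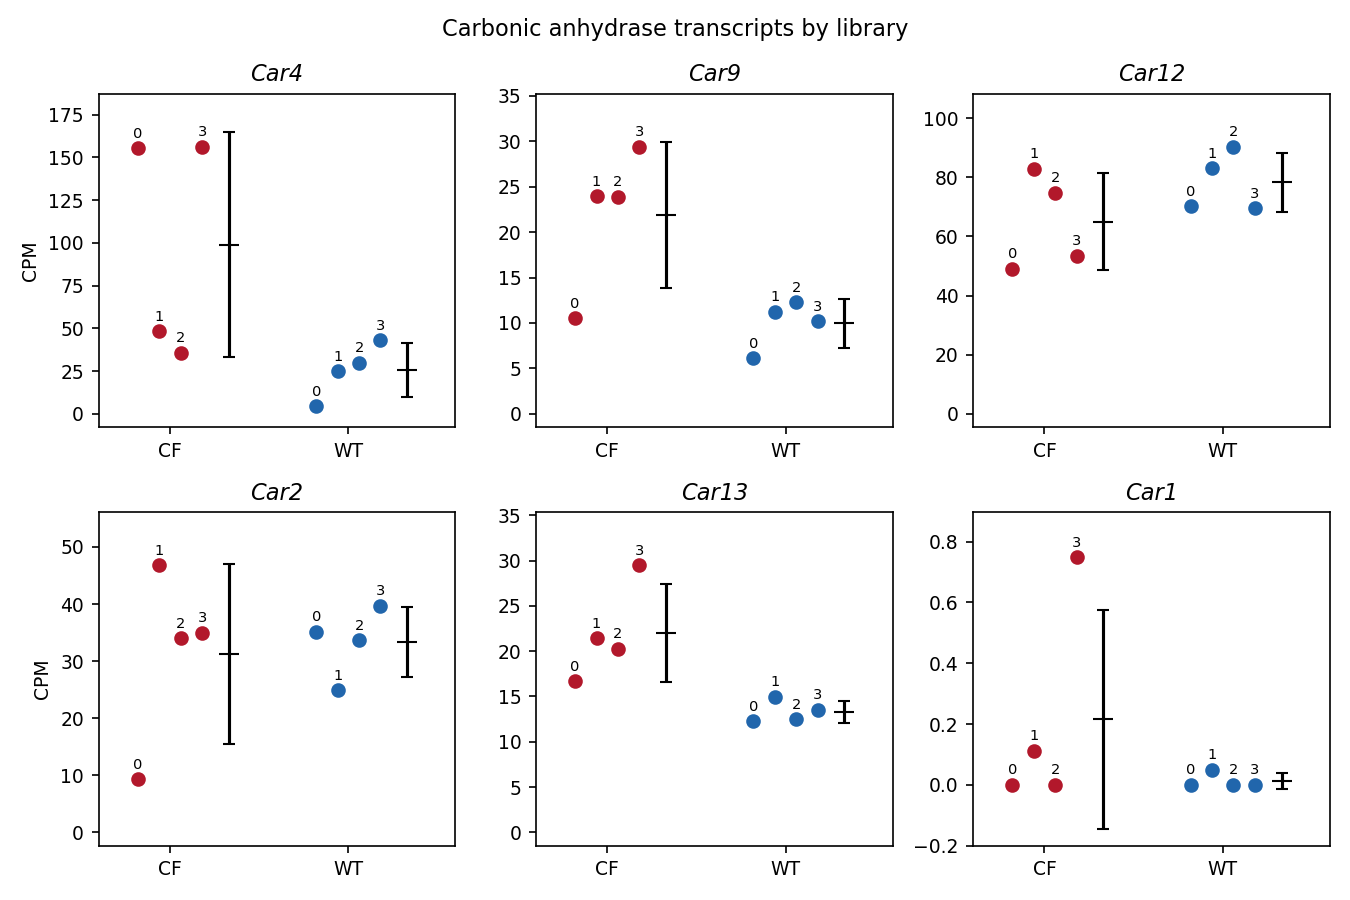
Level in CPM of the 6 carbonic anhydrase genes in each library (red points CF, blue points WT, numbers name the library), with the mean and SD of each group in black (n = 4 each). The vertical scales differ between panels. Car13 is the gene whose CF points (16.7 to 29.5 CPM) all lie above its WT points (12.3 to 14.95 CPM).

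Car4, which in the gut sits on the brush border and hydrates carbon dioxide at the luminal face, lies on chromosome 10 (72272247 to 72281067, Rnor_6.0, as the table gives the span). Its level was 155, 48.3, 35.8 and 156 CPM in CF libraries 0, 1, 2 and 3, and 4.504, 25.0, 29.9 and 43.1 CPM in WT libraries 0, 1, 2 and 3. CF libraries 0 and 3 were far above every other library and WT library 0 was far below. In CPM, CF library 2 lay under WT library 3, so the groups overlapped. In FPKM, the level per transcript length as deposited, CF library 2 (26.6) lay just above WT library 3 (26.4), without overlap. The means were 98.9 ± 65.8 CPM in CF and 25.7 ± 16.0 CPM in WT (SD, n = 4 each). On the log2 scale CF over WT was 1.95 (SE 0.74, 95% interval 0.22 to 3.68, adjusted p = 0.287 by edgeR), and the two-sided exact permutation test over libraries, which cannot go below 0.0286 with 4 against 4, returned p = 0.0571. Without CF libraries 0 and 3, an alternative chosen after the values were seen, the log2 fold change was 0.71 (adjusted p = 0.793).

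Epithelial antimicrobial and inflammatory genes were a list also chosen after the values were seen. Their list mean, like Car4, was high in CF libraries 0 and 3 and lowest in WT library 0, but the 2 parted in WT library 3. The mean of the list's 8 tested members, relative to all libraries, was 1.96 log2 units in CF library 0 and 1.44 in CF library 3, against −0.03 and 0.11 in CF libraries 1 and 2. In WT it was −2.22 in library 0, −0.25 in libraries 1 and 2 and −0.76 in library 3. Car4 in WT library 3 was at its WT highest, 0.09 log2 units above its own mean. Single members differed from this pattern. Lcn2, which encodes an iron-scavenging antimicrobial protein, was higher in WT library 0 (33.9 CPM) than in the other WT libraries (9.97 to 26.5 CPM), and the oxidase gene Duox2 was at 142 to 168 CPM in all CF libraries. Both were named after their values were seen. Car4 itself lay 1.91 and 1.92 log2 units above its own mean in CF libraries 0 and 3 and 2.91 below it in WT library 0. The part of these genes in the Car4 values was not tested.

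Car9 is best known as a gene switched on in hypoxia by the HIF transcription factors, and its protein acidifies the space outside the cell. Its level was 10.5, 23.9, 23.9 and 29.4 CPM in CF libraries 0, 1, 2 and 3, and 6.15, 11.2, 12.3 and 10.2 CPM in WT libraries 0, 1, 2 and 3. CF libraries 1, 2 and 3 lay above all WT libraries, and CF library 0 fell inside the WT range. The means were 21.9 ± 8.03 CPM in CF and 9.96 ± 2.69 CPM in WT (SD, n = 4 each), a log2 fold change of 1.13 (SE 0.31, 95% interval 0.43 to 1.84, adjusted p = 0.162 by edgeR). The exact permutation test gave p = 0.0857.

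Car9 passed the threshold in some alternatives. The adjusted p was 0.0132 by DESeq2, which called 3.74% of its loci, and 0.0101 by DESeq2 with no low-count filter, which called 3.1%. It was 0.0255 by edgeR without CF library 0, where 0.781% of loci were called and the log2 fold change was 1.37. It was 0.00837 without CF library 0 and WT library 0 together, an alternative chosen after the values were seen, where 0.505% were called. The span that the table gives for Car9 (chromosome 5, 58995198 to 59025631) also covers Ccdc107, Arhgef39 and Tpm2, and the Car9 fragments were fractional in all 8 libraries, so fragments could have been shared between these loci. Tpm2, the smooth muscle tropomyosin gene there, was at 433 to 685 CPM in CF, against 507 to 670 CPM in WT, with a log2 fold change of 0.03 (SE 0.17). Ccdc107 stood at 0.14 (SE 0.11) and Arhgef39 at 0.16 (SE 0.11), against 1.13 for Car9, and the differences between these loci were not tested.

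Genes of the hypoxia response gave a mixed picture beside Car9. Of 16 tested, 0 passed the test, 11 had higher and 5 lower means in CF, and their median stood at 0.21 on the log2 scale, against −0.0049 for all tested loci. Highest in level were Ldha, the lactate dehydrogenase subunit gene, at a log2 fold change of −0.03 (SE 0.21), and the glycolytic kinase gene Pgk1 at 0.33 (SE 0.14). In 3 of the 16 all CF libraries lay above all WT libraries, where 4.86% of all tested loci did. These were Slc2a1, which encodes a glucose transporter (log2 fold change 0.86, adjusted p = 0.0756), the hexokinase gene Hk2 (1.08, adjusted p = 0.155) and Hif1a itself (0.56, adjusted p = 0.140), named here after their values were seen. Pfkfb3, another HIF target, differed the other way (−0.68, adjusted p = 0.186).

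Car12 encodes the transmembrane enzyme that in epithelia sits mainly on the basolateral side, and lies on chromosome 8 (72405747 to 72461422). It was the most counted of the 6 genes in WT. Its level was 49.0, 82.9, 74.8 and 53.5 CPM in CF libraries 0, 1, 2 and 3, and 70.3, 83.0, 90.3 and 69.6 CPM in WT libraries 0, 1, 2 and 3. CF libraries 0 and 3, the pair that was high in Car4, were the lowest of the 8, and CF libraries 1 and 2 lay inside the WT range. CF over WT was −0.27 on the log2 scale (SE 0.17, 95% interval −0.65 to 0.11, adjusted p = 0.492 by edgeR, exact permutation p = 0.2286). Without CF libraries 0 and 3 it was 0.01.

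The windows around the start sites of these 3 membrane-bound genes are shown because a HIF core motif and an AP-1 motif can be looked for in them beside the hypoxia genes above. Of the 6 genes 3 matched the RefSeq promoter table, which runs from 250 bases before to 50 bases after a start site on build GRCr8. The sequences are written 5′ to 3′ on the gene's strand, with the letters ACGTG (HIF core) or TGANTCA (AP-1), found on either strand, in capitals.
Car9, chr5:62558774-62559073, plus strand: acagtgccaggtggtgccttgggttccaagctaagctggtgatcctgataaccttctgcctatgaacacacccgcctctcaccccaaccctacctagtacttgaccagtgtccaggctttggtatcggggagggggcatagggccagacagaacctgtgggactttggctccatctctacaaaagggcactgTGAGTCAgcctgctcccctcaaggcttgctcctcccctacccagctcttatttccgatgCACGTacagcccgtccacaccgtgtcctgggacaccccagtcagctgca
Car4, chr10:70325108-70325407, plus strand: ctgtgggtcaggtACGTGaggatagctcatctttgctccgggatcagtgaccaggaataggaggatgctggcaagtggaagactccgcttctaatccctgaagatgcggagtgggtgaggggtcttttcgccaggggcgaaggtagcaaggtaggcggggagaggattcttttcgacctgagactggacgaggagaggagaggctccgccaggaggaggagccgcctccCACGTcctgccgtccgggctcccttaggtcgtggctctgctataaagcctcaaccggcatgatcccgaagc
Car12, chr8:76169565-76169864, plus strand: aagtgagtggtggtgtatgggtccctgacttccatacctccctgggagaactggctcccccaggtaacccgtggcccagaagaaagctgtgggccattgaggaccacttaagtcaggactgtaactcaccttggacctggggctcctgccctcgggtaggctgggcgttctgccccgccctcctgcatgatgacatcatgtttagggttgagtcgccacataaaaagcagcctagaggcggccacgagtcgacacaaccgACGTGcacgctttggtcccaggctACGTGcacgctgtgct

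The HIF core letters occurred in all 3 windows, once in Car9 and 2 times each in Car4 and Car12, and in 19.3% of the 33469 windows of the table. In Car9 the match began 2 bases into the transcript as the table places the start. In Car12 both matches lay downstream of the start (first base at 11 and 35), and in Car4 both lay upstream (first base at −237 and −21). The AP-1 letters occurred in Car9 alone among the 3, 58 bases before the start, and in 7.33% of all windows. No HIF core match overlapped an AP-1 match. A match of letters does not show that a factor binds there.

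Car13 encodes a cytosolic enzyme. Its level was 16.7, 21.4, 20.3 and 29.5 CPM in CF libraries 0, 1, 2 and 3, and 12.3, 14.95, 12.5 and 13.5 CPM in WT libraries 0, 1, 2 and 3. In CPM all CF libraries lay above all WT libraries, as in 4.86% of tested loci, and CF library 3 was the highest. In FPKM the groups overlapped, with CF library 0 (7.93) under WT library 1 (8.41). The adjusted p was 0.325 by limma on log2(FPKM + 1) and 0.344 by limma on log2(FPKM + 0.1). The means were 22.0 ± 5.40 CPM in CF and 13.3 ± 1.22 CPM in WT (SD, n = 4 each). CF over WT was 0.72 on the log2 scale (SE 0.17, 95% interval 0.35 to 1.10, adjusted p = 0.106 by edgeR), and the exact permutation test gave p = 0.0286, the smallest it allows. The adjusted p was 0.00935 by DESeq2 and 0.0101 by DESeq2 with no low-count filter, 0.00102 by edgeR with no low-count filter, which called 1.38% of its loci, and 0.0406 without CF library 0.

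Summed markers of other cells were also higher on average in CF. The summed level of the 4 smooth muscle markers found was 4660 to 6218 CPM in CF and 2807 to 4195 CPM in WT, with CF library 3 the highest, and 0 of these 4 were called. In Des and Cnn1 all CF libraries lay above all WT libraries, as in 4.86% of all tested loci, while Acta2 and Myh11 overlapped. The summed level of the 7 goblet cell markers was 7294 to 10959 CPM in CF and 4588 to 9104 CPM in WT, which overlapped, again with CF library 3 the highest. Of these 7, 0 were called. In 3 of them, Spink4, Agr2 and Spdef, all CF libraries lay above all WT libraries, while Tff3, Clca1, Fcgbp and Zg16 overlapped. Spink4, Agr2 and Spdef were named after their values were seen. In bulk tissue, more cells of a type and more RNA per cell cannot be told apart, and the part of these cell types in the Car13 values was not tested.

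Car2, the fast cytosolic enzyme found in most epithelia and in red cells, did not differ detectably between the groups. Its level was 9.35, 46.8, 34.0 and 35.0 CPM in CF libraries 0, 1, 2 and 3, and 35.1, 24.9, 33.7 and 39.7 CPM in WT libraries 0, 1, 2 and 3. CF library 0 was the lowest of all and CF library 1 the highest, so the WT range lay within the CF range. CF over WT was −0.09 on the log2 scale (SE 0.41, 95% interval −1.04 to 0.85, adjusted p = 0.937 by edgeR, exact permutation p = 0.8286), and 0.21 without CF library 0. The villus enterocyte genes had the same extremes, with −1.07 log2 units in CF library 0 and 0.57 in CF library 1, and their part in the Car2 values was not tested. Of 4 tested red cell markers the globin gene Hba-a2 was called lower in CF (log2 fold change −1.07, SE 0.16, adjusted p = 0.0339 by edgeR). The 6 red cell markers found summed to 90.5 to 124 CPM in CF and 152 to 351 CPM in WT, without overlap. Among single tested loci 8.78% did not overlap between the groups in either direction. The part of red cells in the Car2 values was not tested.

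Car1, the cytosolic enzyme abundant in colon and red cells, was near the limit of counting. It had 0, 2, 0 and 15 fragments in CF libraries 0, 1, 2 and 3, and 0, 1, 0 and 0 in WT libraries 0, 1, 2 and 3. CF library 3 thus held 15 of the 17 fragments in CF, and the gene fell under the low-count filter of the edgeR fit. A count of 0 allows up to 3 fragments, which is 0.140 to 0.205 CPM per library, for counting error only. The exact permutation test gave p = 0.4286.

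**Figure D2:**
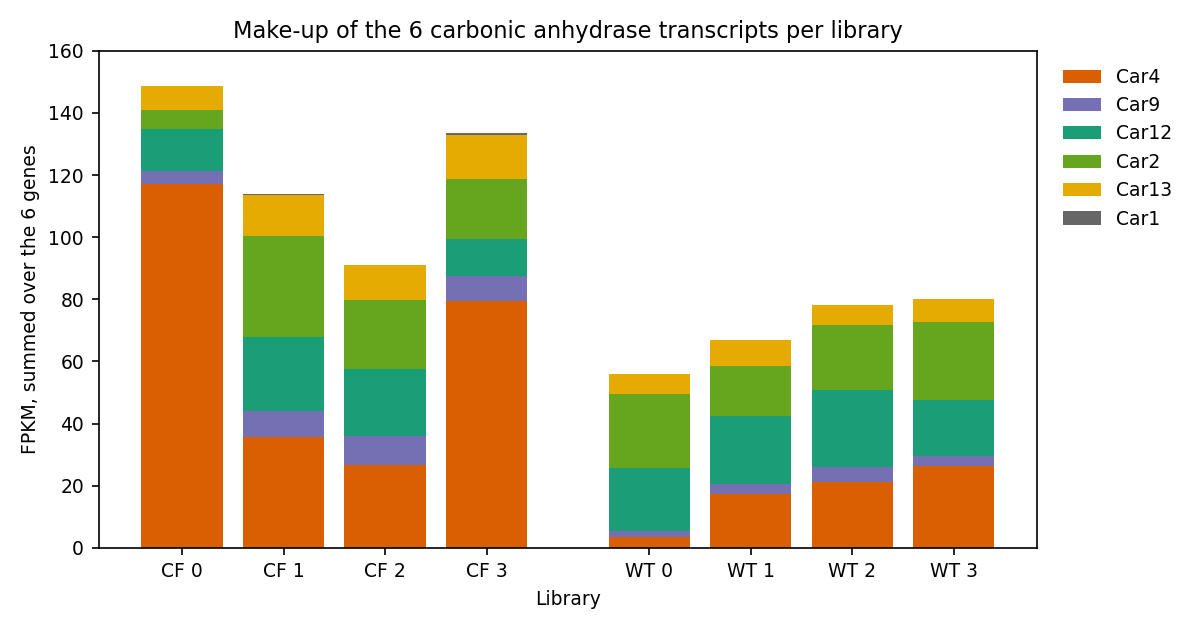
Level per transcript length (FPKM, as deposited) of the 6 genes stacked by library, CF on the left and WT on the right. Car4 makes up 78.8% of the sum in CF library 0, 59.4% in CF library 3 and 5.98% in WT library 0, and the sums run from 91.0 to 149 FPKM in CF and from 55.9 to 79.9 FPKM in WT.

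Levels of different genes can be compared only per transcript length, for which the authors' FPKM values were used. In CF the order of mean FPKM was Car4, Car2, Car12, Car13, Car9 and Car1, at 64.7 ± 41.9, 20.0 ± 10.9, 17.7 ± 5.93, 11.7 ± 2.84, 7.49 ± 2.34 and 0.169 ± 0.274 (SD, n = 4). In WT it was Car2, Car12, Car4, Car13, Car9 and Car1, at 21.4 ± 4.0, 21.2 ± 2.80, 17.1 ± 9.88, 7.19 ± 0.903, 3.33 ± 1.10 and 0.0110 ± 0.0221. The ranges of neighbours in this order overlapped, except that Car9 lay above Car1 in both groups and Car13 above Car9 in WT. Car4 was nevertheless first in each of the 4 CF libraries, while in WT the first place went to Car2 in library 0, to Car12 in libraries 1 and 2, and to Car4 in library 3. Car9 ranked 5 and Car1 last in all 8 libraries, and Car2 ranked 4 in CF library 0.

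The summed FPKM of the 6 genes was 149, 114, 91.0 and 134 in CF libraries 0, 1, 2 and 3, and 55.9, 67.0, 78.1 and 79.9 in WT libraries 0, 1, 2 and 3. The CF sums all lay above the WT sums. Without Car4 the sums were 31.5, 78.0, 64.4 and 54.2 in CF and 52.6, 49.8, 56.8 and 53.6 in WT, and the groups overlapped. Car4 took 49.7 ± 23.8% of the sum in CF and 23.0 ± 11.8% in WT (SD, n = 4 each). Car12 took 15.6 ± 7.79% in CF and 30.8 ± 5.74% in WT.

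Ratios within a library depend little on the scaling between libraries, and all 10 pairs of the 5 tested genes were compared by log2 ratios of CPM + 1. In 3 pairs the groups did not overlap. Car9 over Car12 was −1.58 ± 0.537 in CF and −2.88 ± 0.295 in WT, a difference of 1.30. Car12 over Car13 was 1.52 ± 0.486 in CF and 2.47 ± 0.206 in WT, a difference of −0.95. Car2 over Car9 was 0.38 ± 0.457 in CF and 1.67 ± 0.551 in WT, a difference of −1.29. Each of these 3 had an exact permutation p = 0.0286, the smallest 4 against 4 allows, or 0.0953 after Benjamini-Hochberg adjustment over the 10 pairs. The widest mean difference was that of Car4 over Car12, 0.34 ± 1.44 in CF and −1.91 ± 1.28 in WT, but its groups overlapped (exact permutation p = 0.0857, adjusted 0.171). Transcripts of Car9 and Car13 were therefore more abundant relative to Car12 in every CF library than in any WT library.

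**Figure D3:**
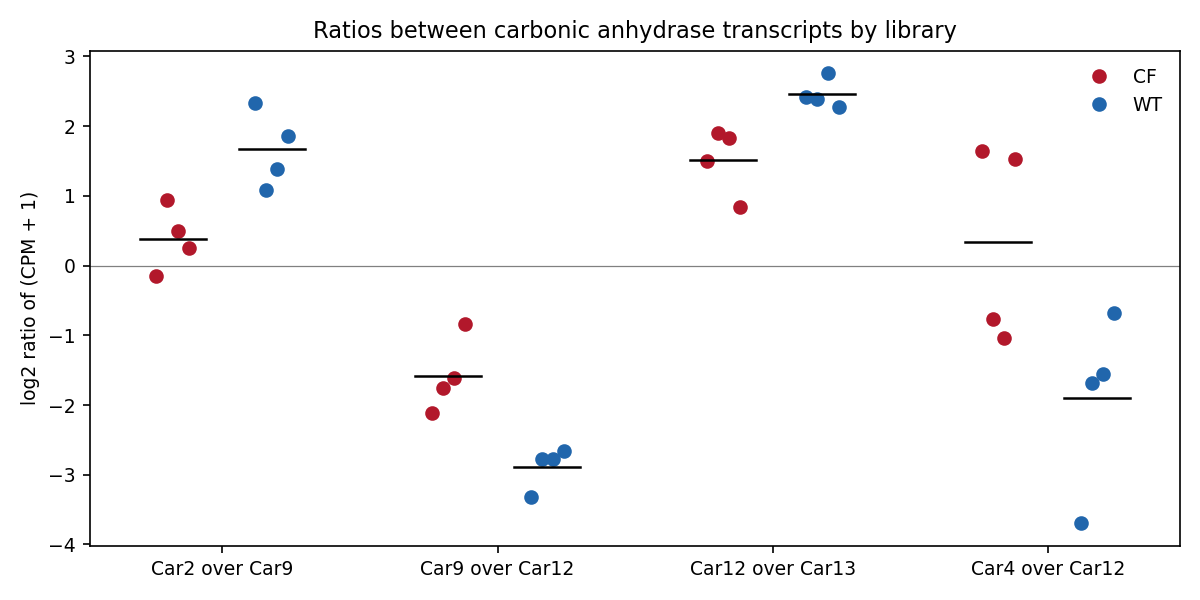
Log2 ratio of CPM + 1 between pairs of carbonic anhydrase genes in each library (red CF, blue WT), with group means as black lines. The 4 CF values of Car2 over Car9, Car9 over Car12 and Car12 over Car13 do not overlap the 4 WT values, while those of Car4 over Car12 do.

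The genes most like each member were sought among 11944 loci by Pearson's r of log2 CPM over the 8 libraries, which is a description and includes any difference between the groups. For Car4 they were Trabd (r = 0.985), Slc6a14 (0.985) and Uap1 (0.980). Slc6a14, which encodes an amino acid transporter of the apical membrane, was at 58.7, 15.6, 16.9 and 44.6 CPM in CF libraries 0, 1, 2 and 3 and at 2.13, 9.23, 11.2 and 11.3 CPM in WT libraries 0, 1, 2 and 3 (log2 fold change 2.0, SE 0.61, adjusted p = 0.211). It was thus high in the same pair of CF libraries as Car4 and low in the same WT library. For Car9 they were Sc5d (0.972), Adam15 (0.971) and Fdps (0.969). Sc5d and Fdps encode enzymes of sterol synthesis and Adam15 a membrane metalloprotease. For Car13 they were Acta1 (0.978), Elovl1 (0.9748) and Atp2a3 (0.970), which encode skeletal muscle actin, a fatty acid elongase and a calcium pump. For Car2 they were Gsta3 (0.974), Tada3 (0.971) and Dcxr (0.968), and for Car12 Camk1 (0.980), Itga11 (0.963) and Tmem38a (0.959). Between members r was highest for Car9 and Car13 (0.897) and lowest for Car4 and Car12 (−0.585).

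**Figure D4:**
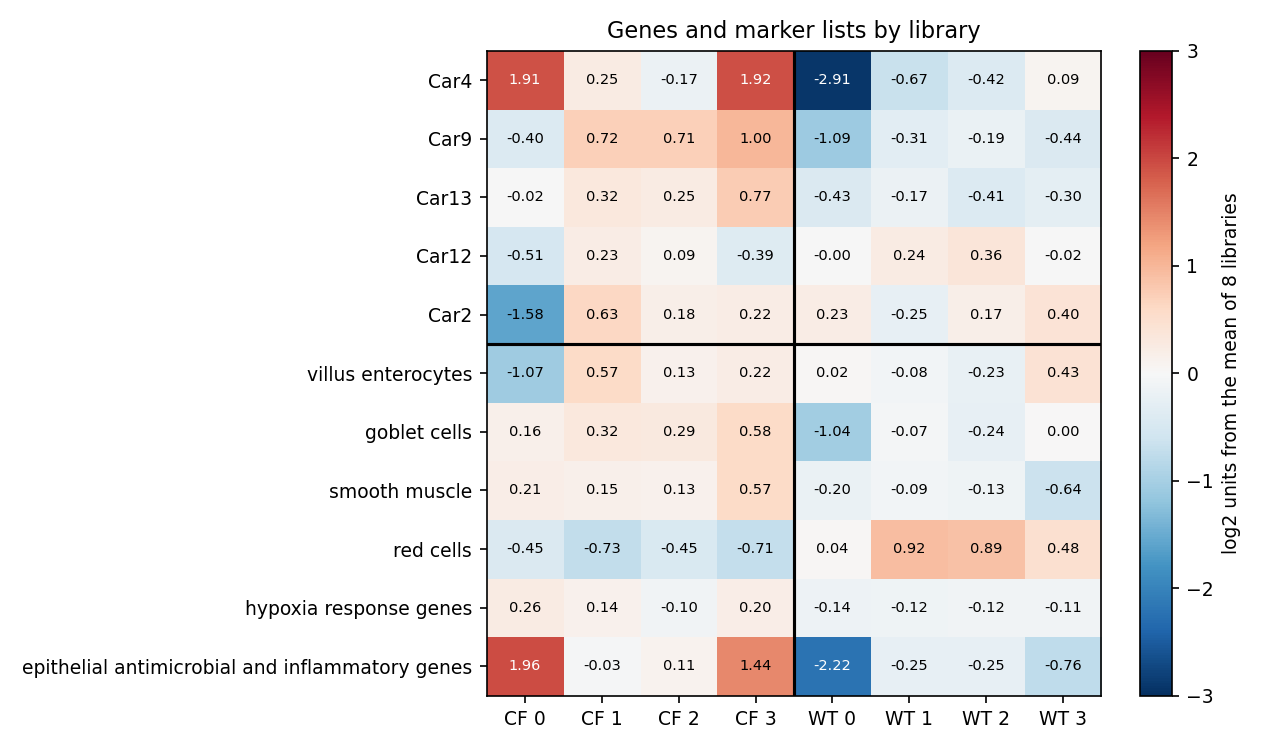
Distance in log2 units from the mean of the 8 libraries for the 5 tested genes (upper rows, log2 of CPM + 1) and for the mean of 6 gene lists (lower rows, log2 CPM), CF left of WT. Car4 (1.91 in CF library 0, 1.92 in CF library 3, −2.91 in WT library 0) and the antimicrobial list (1.96, 1.44 and −2.22) are extreme in these libraries. They part in WT library 3 (0.09 for Car4, −0.76 for the list). Car2 (−1.58) and the villus list (−1.07) are both lowest in CF library 0.

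The family genes Car2, Car3, Car1 and Car13 lie in this order within 217 kb of chromosome 2 (88097719 to 88314254). Their neighbours' values differed in direction. Car3, a cytosolic enzyme of muscle and fat with low activity, was at 7.81, 10.2, 12.2 and 4.34 CPM in CF libraries 0, 1, 2 and 3, and at 27.4, 15.9, 9.83 and 15.02 CPM in WT libraries 0, 1, 2 and 3. CF libraries 1 and 2 lay inside the WT range. Its log2 fold change was −0.98 (SE 0.36, adjusted p = 0.263 by edgeR), against −0.09 for Car2 and 0.72 for Car13. The 7 tested adipocyte markers, added after the values were seen, had a median log2 fold change of −0.01. The summed level of the 8 found overlapped between the groups at 75.9 to 124 CPM in CF, against 85.2 to 115 CPM in WT. Single markers went both ways. Plin1 was lower in CF without overlap (−0.90, SE 0.36, adjusted p = 0.279 by edgeR). Cfd was higher in CF without overlap (0.73, SE 0.21, adjusted p = 0.162 by edgeR). These genes were picked out with the levels already known. Plin1, like Car3, was lowest in CF library 3 (0.598 CPM) and highest in WT library 0 (3.71 CPM). The part of fat cells in the Car3 values was not tested.

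**Figure D5:**
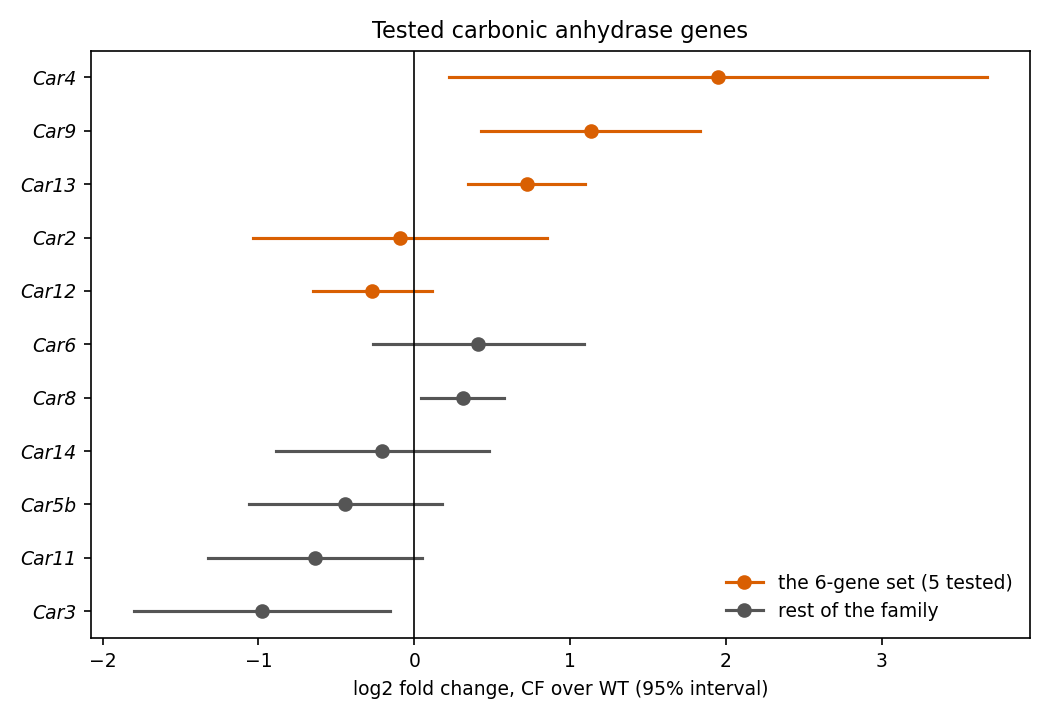
Log2 fold change (CF over WT) with its 95% interval by edgeR for the 11 carbonic anhydrase genes that were tested, the 6-gene set in orange and the rest of the family in grey. The intervals of Car4, Car9, Car13, Car8 and Car3 do not include 0, and none of the 11 passed the adjusted threshold.

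Of the other 10 family genes 6 were tested and 0 were called, 2 with higher and 4 with lower means in CF. Car8, Car10 and Car11 encode relatives that lack carbonic anhydrase activity. Car8 was at 12.8 to 15.9 CPM in CF, against 10.6 to 12.4 CPM in WT, without overlap, and its log2 fold change was 0.31 (SE 0.12, adjusted p = 0.270 by edgeR). Groups did not overlap in either direction in 8.78% of tested loci. Car11 stood at −0.64 (SE 0.31) and the transmembrane enzyme gene Car14 −0.20 (SE 0.31). The secreted enzyme gene Car6 stood at 0.41 (SE 0.31) and the mitochondrial Car5b at −0.44 (SE 0.28). Car7 and Car10 had too few fragments to be tested, with 25 and 4 in all CF libraries and 54 and 5 in all WT libraries. Car5a and Car15 had no fragment in any library.

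Transporters that work with these enzymes did not separate the groups as a set. Of 14 tested, 0 were called, 7 had higher and 7 lower means in CF, and their median stood at 0.01 on the log2 scale. Atp1b1, which encodes a sodium pump subunit, had a log2 fold change of −0.05 (SE 0.18). Cftr stood at 0.04 (SE 0.12), the apical chloride-bicarbonate exchanger gene Slc26a3 −0.17 (SE 0.27), and the apical sodium-hydrogen exchanger gene Slc9a3 −0.56 (SE 0.32). The basolateral sodium-bicarbonate cotransporter gene Slc4a4 stood at −0.20 (SE 0.15). Of the 14 tested, 1 did not overlap between the groups, where 8.78% of all tested loci did not in either direction. This was Slc5a8, which encodes a sodium-coupled monocarboxylate transporter, at 32.4 ± 7.46 CPM in CF, against 13.5 ± 7.37 CPM in WT (log2 fold change 1.26, SE 0.47, adjusted p = 0.272). Slc26a3, Slc9a3, Slc4a4 and Slc5a8 were named after their values were seen.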

How the data were processed

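Stranded mRNA sequencing of small intestine was analysed from 4 CF and 4 WT libraries. The submitters' processing notes name build Rnor_6.0 and the tools STAR 2.3.1z, Cuffdiff, StringTie, cutadapt and bcl2fastq, with no order or settings. The estimated counts are raw fragments per locus and library as deposited by the authors (5.99% fractional, rounded here). FPKM values, for libraries and for group means, were also deposited by the authors, per the file headers. Another 2 per-library columns went unused. Table and titles number libraries differently (0 to 3, 1 to 4), so titles could not be tied to libraries within a group.

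Loci were kept by edgeR's filterByExpr (minimum count 10, minimum total 15), scaled by TMM and tested by edgeR 4.0.16's robust quasi-likelihood test in R 4.3.3 (threshold: adjusted p of 0.05, Benjamini-Hochberg over 16941 loci). SE was taken as the absolute log2 fold change divided by the root of F. log2 CPM used a prior count of 2. Alternatives used limma 3.58.1 and DESeq2 1.42.0. The test was checked on simulated data with changes set at 1.5, 2 and 4 fold, of which it recovered 14.9%, 64.2% and 83.3%. Of its 117 calls there 7.69% were false. Exact tests enumerated the 70 assignments of libraries on log2(CPM + 1). Members and lists were chosen with earlier results of these data known. Besides the family, genes were named by rule: called members of a list (at most 4), otherwise its 2 most abundant, and the 3 loci most like each member (single symbol, mean of at least 1 CPM, no placeholder name). A gene that this rule names is not reported here.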

Additional observations from a re-analysis of the deposited data

Results flagged for a closer look

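Of 104 groups of 4 libraries checked for 54 named genes, 10 held a library whose gap to the nearest of the others exceeded Dixon's 95% critical value, and chance gives about 1 in 20. Among the carbonic anhydrases these were Car1 in CF library 3 (0.748 CPM, against at most 0.113 CPM in the other CF libraries) and in WT library 1 (0.0502 CPM, from 1 fragment, against 0). With the other WT libraries at 0, any fragment would have been flagged, so the Car1 flag in WT library 1 carries no weight. WT library 0 was low for Uap1 (22.9 CPM, against 34.5 to 36.2 CPM in the other WT libraries), which resembled Car4, for Fdps (188 CPM, against 231 to 235 CPM), which resembled Car9, and for the sodium pump gene Atp1b1 (1065 CPM, against 1708 to 1740 CPM). Atp1b1 was also low in CF library 2 (1294 CPM, against 1568 to 1606 CPM in the other CF libraries). Vip was high in CF library 0 (68.5 CPM, against 48.0 to 51.3 CPM). The smooth muscle gene Myh11 was low in WT library 3 (1301 CPM, against 2050 to 2102 CPM). The pancreas marker Cel was high in CF library 2 (18.7 CPM, against 0.193 to 0.549 CPM) and in WT library 1 (5.07 CPM, against 0.205 to 0.698 CPM).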

How the results depend on the processing

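The number of called loci, 28 in the fit given above, was 17 with no scaling factors or by limma-voom, 553 with no low-count filter, 621 by DESeq2 and 566 by DESeq2 with no low-count filter. It was 47 without CF libraries 0 and 3 and 86 without CF library 0 and WT library 0, and 5 to 136 with 1 library left out. Of the 6 carbonic anhydrases, 0 were called in the fit given above, 1 with no low-count filter, 2 by DESeq2 with or without the filter, 1 without CF library 0 and WT library 0, and 0 to 2 with 1 library left out. Car9 passed by DESeq2 (log2 fold change 1.14, and 1.15 with no low-count filter) and without CF library 0 and WT library 0 (1.19), and its leave-one-out range was 0.96 to 1.37. Car13 passed by DESeq2 (0.73, and 0.74 with no low-count filter) and by edgeR with no low-count filter (0.76), and its leave-one-out range was 0.55 to 0.84. Car4 was called in none of 20 alternatives, with adjusted p-values of 0.142 to 0.793 and a leave-one-out range of 1.599 to 2.31. Car2 changed sign without CF library 0 (0.21), without WT library 3 (0.0014), without CF libraries 0 and 3 (0.28) and without CF library 0 and WT library 0 (0.23), and its leave-one-out range was −0.35 to 0.21. Car12 did so without CF libraries 0 and 3 (0.01), with a leave-one-out range of −0.41 to −0.15. Car14 changed sign without CF libraries 0 and 3 (0.0354) and without CF library 0 (0.0471), with a leave-one-out minimum of −0.37. The cause of these changes was not tested. Car1 entered the edgeR fit with no low-count filter (adjusted p = 0.268). No paired analysis was possible because the labels give no litter or pair. The table also numbers libraries 0 to 3 and the titles 1 to 4, so the replicate numbers of the labels cannot be tied to the values.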
